A study of Mus musculus with 26 samples.

Results

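The genes described here are Klf9 and 9 other Krüppel-like factors: Klf2, Klf3, Klf4, Klf6, Klf7, Klf10, Klf12, Klf13 and Klf15. They were picked by name from the deposited expression values after each row had been given its gene symbol, and all 10 were measured, each by 1 row, among 19505 named genes. The study used neural stem and progenitor cells (NSPCs) grown from the telencephalon of newborn C57BL/6 mice (postnatal day 0) in Neurocult medium with EGF, FGF-1 and a proliferation supplement, which all groups shared. At passage 3 each culture received 100 nM dexamethasone (Dex), a synthetic agonist of the glucocorticoid receptor, or its ethanol vehicle for 4 h. Cultures 1 to 6 were wild type (WT, n = 6) and cultures 7 to 13 were SOX2 KO (n = 7), and every one gave 1 vehicle and 1 Dex array, 26 arrays in 4 groups. Cultures from different animals were kept apart. How and in which cells the gene for SOX2, which keeps neural stem cells in their undifferentiated state, was deleted, and the sex of each culture, are not given in the sources used here.

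Krüppel-like factors are transcription factors with a C-terminal set of C2H2 zinc fingers that bind GC-rich and CACCC sequences, the same kind of sites that the related Sp factors bind. What differs among them is the N-terminal part, which recruits co-activators or co-repressors. Klf9, Klf10 and Klf13 bind the co-repressor Sin3, Klf3 and Klf12 bind the co-repressor CtBP, and Klf2, Klf4, Klf6 and Klf7 are known mainly as activators. Klf9 is a classical target of the glucocorticoid and thyroid hormone receptors in the brain, where it is linked to neuronal maturation, and Klf15 is induced by glucocorticoids in muscle, liver and other tissues. The comparisons ask which of these genes differed between Dex and vehicle, between SOX2 KO and WT cells, and in their Dex response between the genotypes.

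The arrays carried NSPC markers, and 1 culture went against its treatment labels. All 11 measured NSPC markers lay above the array median, and none of 7 endothelial and none of 6 microglial or blood markers did. Markers of related lineages were partly above it as well, 4 of 7 for neurons, 4 of 6 for astrocytes, 4 of 6 for the oligodendrocyte lineage and 2 of 8 for fibroblasts and mural cells, and their part in the results was not tested. With vehicle, Sox2 stood at a log2 level of 13.40 ± 0.70 (SD) in the 6 WT cultures and at 4.65 ± 0.51 in the 7 SOX2 KO cultures. In WT culture 4, established glucocorticoid targets were lower on the array labelled Dex than on the array labelled vehicle: Fkbp5 by −2.03, Per1 by −2.74 and Tsc22d3 by −1.67, whereas all 3 were higher on the Dex array in each of the other 12 cultures. The cause was not tested. Results that rest on WT arrays are given below with all cultures and without culture 4. In these bulk RNA samples, fewer cells of a type and less RNA per cell cannot be told apart.

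The DNA just before the start of the 3 members with the highest mean Dex differences is shown first, because the family binds the kind of sequence that these promoters hold. Each line is the 250 bases before 1 RefSeq transcript start of the gene (mouse assembly GRCm38.p6), 5′ to 3′ on the gene's own strand, and the capitals mark GC boxes (GGGCGG) and CACCC boxes (CACCC) on either strand, joined where they overlap. The windows are chr19:23140976-23141225 on the plus strand for Klf9, chr7:63938916-63939165 on the minus strand for Klf13 and chr6:90462326-90462575 on the plus strand for Klf15.
Klf9: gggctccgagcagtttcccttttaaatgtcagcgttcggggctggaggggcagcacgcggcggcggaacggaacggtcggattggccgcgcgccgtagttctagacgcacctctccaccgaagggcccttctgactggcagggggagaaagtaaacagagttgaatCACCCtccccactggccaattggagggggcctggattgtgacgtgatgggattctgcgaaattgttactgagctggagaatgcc
Klf13: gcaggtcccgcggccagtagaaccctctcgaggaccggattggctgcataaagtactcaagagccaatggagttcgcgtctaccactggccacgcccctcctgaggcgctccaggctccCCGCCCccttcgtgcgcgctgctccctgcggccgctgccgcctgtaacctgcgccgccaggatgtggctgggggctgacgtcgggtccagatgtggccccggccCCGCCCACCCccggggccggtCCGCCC
Klf15: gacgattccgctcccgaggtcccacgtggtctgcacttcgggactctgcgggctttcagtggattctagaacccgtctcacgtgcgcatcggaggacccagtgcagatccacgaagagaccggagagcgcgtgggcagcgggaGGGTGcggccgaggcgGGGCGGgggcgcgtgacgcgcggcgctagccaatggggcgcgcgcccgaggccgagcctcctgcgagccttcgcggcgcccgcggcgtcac

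RefSeq windows were at hand for 9 members, all but Klf10. For Klf7, Klf12 and Klf15 the start used lies inside the gene's RefSeq span, so other starts of these genes have other windows. A GC box lay in 7 of the 9, against 32.7% of all 32841 windows of this length: 6 in Klf3, 4 in Klf4, 3 in Klf13, 2 in Klf2, and 1 each in Klf6, Klf7 and Klf15, with none in Klf9 and Klf12. A CACCC box also lay in 7 of the 9, all but Klf4 and Klf6, against 52% of all windows. The GC content was 48.0% in Klf12, 59.2% in Klf7 and 59.6% in Klf9, and between 64.8% and 78.4% in the other 6, where the median window had 52.4%. The glucocorticoid response element was searched on both strands as its half-site, AGAACA, and in full as a pair of such half-sites facing each other with 3 bases between them, so that each full element also holds half-sites. None of the 9 windows held either, against 16.1% of all windows for the half-site and 0.00913% for the full element, which says only that these letters are not within these bases. The Klf15 window held 2 E-boxes (CACGTG), an element present in 6.02% of windows, and Klf4 and Klf6 held 1 each.

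Klf9 rose with Dex in SOX2 KO cells and over both genotypes, and in WT cells once culture 4 was left out. In each of these fits its mean difference was the highest of the 10 genes. On WT vehicle arrays its log2 level ran from 8.45 over a median of 9.32 to 11.38, and on WT Dex arrays from 9.43 over 11.08 to 12.58. On SOX2 KO vehicle arrays it ran from 8.21 over 9.57 to 10.26, and on SOX2 KO Dex arrays from 11.26 over 11.74 to 12.11. Every SOX2 KO Dex array thus lay above every SOX2 KO vehicle array. The WT ranges overlapped, and the highest WT vehicle and lowest WT Dex values were both from culture 4. Without it the WT vehicle arrays ended at 10.38 and the WT Dex arrays began at 10.90.

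Taken as Dex minus vehicle within a culture, the Klf9 difference was 1.73, 1.92, 2.20, −1.95, 2.45 and 1.96 in WT cultures 1 to 6. In SOX2 KO cultures 7 to 13 it was 1.88, 1.92, 3.10, 1.73, 1.69, 2.75 and 2.58. Klf9 was therefore higher with Dex in 12 of 13 cultures, culture 4 being the exception. The mean difference in SOX2 KO was 2.24 ± 0.37 log2 units (SE), a 4.71-fold rise, with an adjusted p of 0.0226 in limma. Over both genotypes it was 1.81 ± 0.27, with an adjusted p of 0.0104. The WT mean, 1.39 ± 0.40, had an adjusted p of 0.998. Without culture 4 the WT rise was 2.05 ± 0.20 log2 units, or 4.15-fold (limma, adjusted p = 9.57e-05). The same fit gave an SOX2 KO adjusted p of 2.33e-06 with SE 0.17 and a rise over both genotypes of 2.14 ± 0.13 (adjusted p = 8.39e-08). Among all genes, limma called 0% in WT, 0.0718% in SOX2 KO and 0.144% over both genotypes with all cultures, and 0.169%, 0.251% and 0.497% without culture 4. In WT with all cultures, 755 genes had an unadjusted p under 0.05.

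The SOX2 KO call on Klf9 was lost on leaving out 1 SOX2 KO culture while culture 4 was in the fit. The fit takes the spread of a gene from both genotypes, so WT culture 4 also enters the SE of the SOX2 KO value. That SE was 0.37 with culture 4 and 0.17 without it. Leaving out any 1 of the 7 SOX2 KO cultures gave differences from 2.09 to 2.33 with adjusted p from 0.0549 to 0.108, and leaving out culture 6 put the value over both genotypes at 1.75 (adjusted p = 0.0502). Without culture 4, Klf9 stayed past the threshold in all 19 alternatives in WT, in SOX2 KO and over both genotypes.

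**Figure D1:**
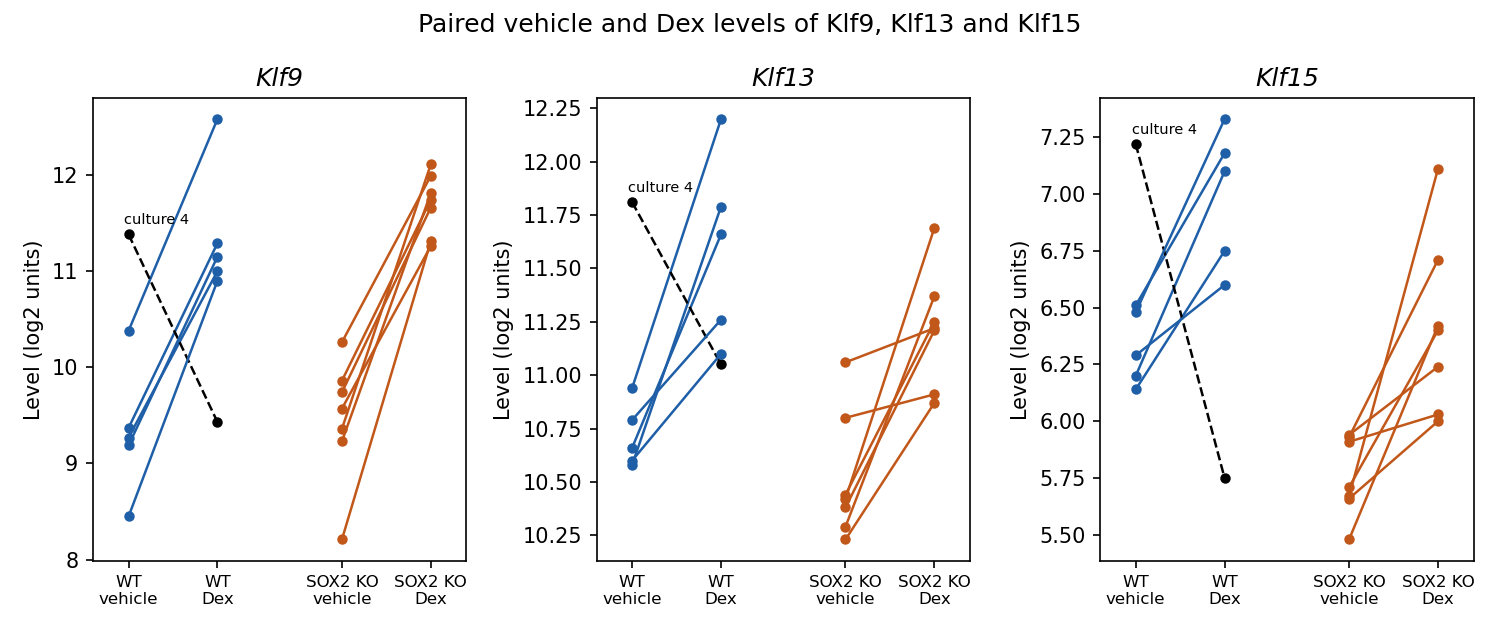
Log2 level (vertical axis, own scale per gene) of Klf9, Klf13 and Klf15 on the vehicle and Dex array of each culture; a line joins the arrays of 1 culture, WT in blue, SOX2 KO in orange, and WT culture 4 as a black dashed line. Klf9 goes up in 12 of 13 cultures, and culture 4 goes from 11.38 down to 9.43.

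Klf13, the closest relative of Klf9 and another Sin3-binding repressor, was higher with Dex in the same 12 cultures by smaller amounts. Its log2 level ran from 10.58 over a median of 10.73 to 11.81 on WT vehicle arrays and from 11.05 over 11.46 to 12.20 on WT Dex arrays. In SOX2 KO it ran from 10.23 over 10.42 to 11.06 with vehicle and from 10.87 over 11.22 to 11.69 with Dex. The vehicle and Dex ranges overlapped in both genotypes, and in WT they separated once culture 4 was left out, at 10.94 and 11.10. The difference by culture was 1.21, 1.26, 1.00, −0.76, 0.50 and 0.47 in WT and 0.16, 0.81, 1.27, 1.08, 0.64, 0.11 and 0.83 in SOX2 KO. The SOX2 KO responses thus spread from near 0 in cultures 7 and 12 to more than 1 log2 unit in cultures 9 and 10. Over both genotypes the mean was 0.66 ± 0.15 (SE), which did not pass in limma (adjusted p = 0.134). Without culture 4 it was 0.79 ± 0.12, a rise of 1.73-fold (adjusted p = 0.00324). Taken by genotype it missed the threshold in the main fits with and without culture 4. Some alternatives passed: 2 of 22 in WT and 1 of 22 in SOX2 KO with all cultures. Without culture 4, 4 of 19 passed in each genotype. Without that culture the WT value was 0.89 ± 0.19 (adjusted p = 0.100) and the SOX2 KO value 0.70 ± 0.16 (adjusted p = 0.105).

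Klf15, a regulator of amino acid and glucose metabolism, followed the same pattern at a low signal. Its signal lay between the 34.9th and 56.4th percentile of the genes on its array. The log2 level ran from 6.14 over 6.39 to 7.22 on WT vehicle arrays, from 5.75 over 6.93 to 7.33 on WT Dex arrays, from 5.48 over 5.71 to 5.94 on SOX2 KO vehicle arrays and from 6.00 over 6.40 to 7.11 on SOX2 KO Dex arrays. Every SOX2 KO Dex array was above every SOX2 KO vehicle array, and in WT the same held only without culture 4. By culture, the difference was 0.90, 0.67, 0.61, −1.47, 0.85 and 0.31 in WT and 0.78, 0.69, 0.94, 0.30, 0.12, 0.34 and 1.44 in SOX2 KO. Culture 13 gave the highest response and cultures 10, 11, 12 and 6 the lowest positive ones. Over both genotypes the mean was 0.49 ± 0.17 (SE; limma, adjusted p = 0.398). Without culture 4 it was 0.66 ± 0.12, a 1.58-fold rise that passed (adjusted p = 0.00943). The values within WT, 0.67 ± 0.18 (adjusted p = 0.369), and within SOX2 KO, 0.66 ± 0.15 (adjusted p = 0.109), did not pass in limma without culture 4. Each passed in 1 of 19 alternatives of that fit.

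Klf9, Klf13 and Klf15 were thus the members called over both genotypes without culture 4, 3 of 10, where limma called 0.497% of all genes. They stayed called in all 19 alternatives of that fit, with the highest adjusted p at 1.16e-06 for Klf9, 0.0176 for Klf13 and 0.0468 for Klf15. They were also the members higher with Dex in each of the 12 cultures, which held for 0.405% of all genes. Non-overlapping arrays, all Dex above all vehicle, were seen for these 3 genes among the 5 WT cultures (0.385% of all genes) and for Klf9 and Klf15 among the 7 SOX2 KO cultures (0.082%). The members were chosen with earlier results of these arrays known, so the count is a description.

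**Figure D2:**
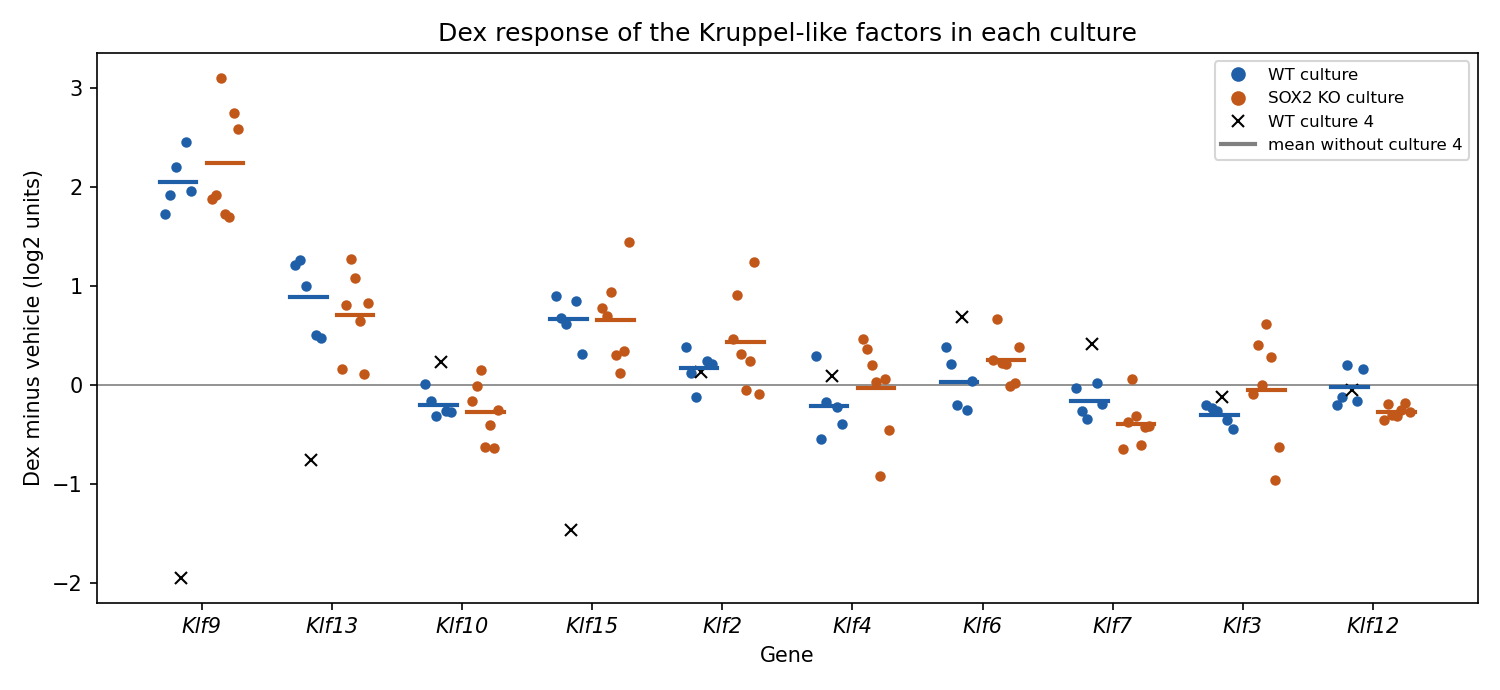
Dex minus vehicle in log2 units (vertical axis) for each of the 10 genes (horizontal axis), 1 point per culture, WT in blue and SOX2 KO in orange; horizontal bars are means without culture 4, which is the black cross. For Klf9, Klf13 and Klf15 all 12 coloured points lie above 0 and the cross below it; the Klf9 points run from 1.69 to 3.10.

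Klf10, known as TGF-beta-inducible early gene 1 and the third Sin3-binding member, did not follow Klf9 and Klf13. Its log2 level ran from 11.96 over 12.81 to 13.88 on WT vehicle arrays and from 11.69 over 12.82 to 13.56 on WT Dex arrays. In SOX2 KO the range was 12.68 over 13.66 to 14.79 with vehicle and 12.42 over 13.49 to 14.16 with Dex. The ranges overlapped widely. The difference was below 0 in 10 of 13 cultures, with a mean over both genotypes of −0.21 ± 0.09 (SE; limma, adjusted p = 0.515), and −0.24 ± 0.10 without culture 4 (adjusted p = 0.428).

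Among the activators, no Dex effect passed the threshold in any of the fits. Klf2, which is known from endothelial cells and T cells, lay low on the arrays, between the 28.2nd and 50.6th percentile. Its mean difference was 0.16 ± 0.16 (SE) in WT, 0.17 ± 0.18 without culture 4, and 0.43 ± 0.15 in SOX2 KO (limma, adjusted p = 0.385). The SOX2 KO value was carried by cultures 12, at 1.24, and 8, at 0.91, while cultures 10 and 13 were at −0.05 and −0.09. Klf6, an early response gene of injury and growth signals, differed by 0.14 ± 0.14 in WT, where culture 4 stood at 0.68, and by 0.03 ± 0.15 without that culture. In SOX2 KO it differed by 0.25 ± 0.13 (limma, adjusted p = 0.538) and was higher with Dex in 6 of 7 SOX2 KO cultures.

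Klf7, which supports axon growth, had values of the other sign in SOX2 KO. Its differences there were −0.65, −0.38, 0.06, −0.32, −0.61, −0.43 and −0.42, below 0 in all but culture 9. The mean was −0.39 ± 0.12 (SE; limma, adjusted p = 0.336). In WT it was −0.07 ± 0.13, with culture 4 at 0.41, and −0.17 ± 0.14 without that culture. Klf4, a reprogramming factor together with Sox2, lay low on the arrays, between the 4.42nd and 32.0th percentile. Its differences ran from −0.92 to 0.46 with means of −0.16 ± 0.17 in WT, −0.21 ± 0.19 without culture 4, and −0.04 ± 0.16 in SOX2 KO, so no change was detectable at this signal.

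The CtBP-binding members showed small differences of one sign within 1 genotype. Klf12 was lower with Dex in all 7 SOX2 KO cultures, by −0.36, −0.20, −0.31, −0.32, −0.26, −0.19 and −0.28, a narrow spread. Its mean of −0.27 ± 0.10 (SE) did not pass in limma (adjusted p = 0.414), and 1.49% of all genes were lower in all 7. The SD of the Klf12 differences was 0.06 in SOX2 KO and 0.17 in WT, and the SE rests on both genotypes. The vehicle arrays, from 12.89 to 13.67, overlapped the Dex arrays, from 12.63 to 13.37. In WT the Klf12 differences lay between −0.21 and 0.20, with a mean of −0.03 ± 0.11, and −0.03 ± 0.13 without culture 4. Klf3, known as a repressor in red cell and fat cell development, was lower in all 6 WT cultures, culture 4 included, by −0.21, −0.24, −0.27, −0.12, −0.36 and −0.45. This was so for 2.11% of all genes. The mean was −0.28 ± 0.17 (SE, limma adjusted p = 0.998), or −0.31 ± 0.19 without culture 4 with the same adjusted p. The SOX2 KO differences of Klf3 ran from −0.96 in culture 12 to 0.61 in culture 10. The SD of the Klf3 differences was 0.12 in WT and 0.57 in SOX2 KO, and the SE of the WT mean rests on both genotypes.

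Across the 10 members, 5 mean Dex differences were above 0 and 5 below in each genotype, with all cultures and without culture 4. Their median over both genotypes was 0.05 log2 units with all cultures and 0.01 without culture 4, beside −0.01 for all genes in each set. At an unadjusted limma p under 0.05, 7 of 10 members stood out in SOX2 KO, where 10.2% of all genes did. These 7 were Klf2, Klf7, Klf9, Klf10, Klf12, Klf13 and Klf15. Klf7, Klf10 and Klf12 were lower with Dex, and only Klf9 passed after adjustment. With all cultures this cut was met by 2 of 10 in WT (3.87% of all genes) and 6 over both genotypes (9.1%). For the difference of responses it was met by 0 of 10 (3.53%). Without culture 4 it was met by 3 in WT (4.93%), 7 in SOX2 KO (9.74%) and 6 over both genotypes (9.83%).

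**Figure D3:**
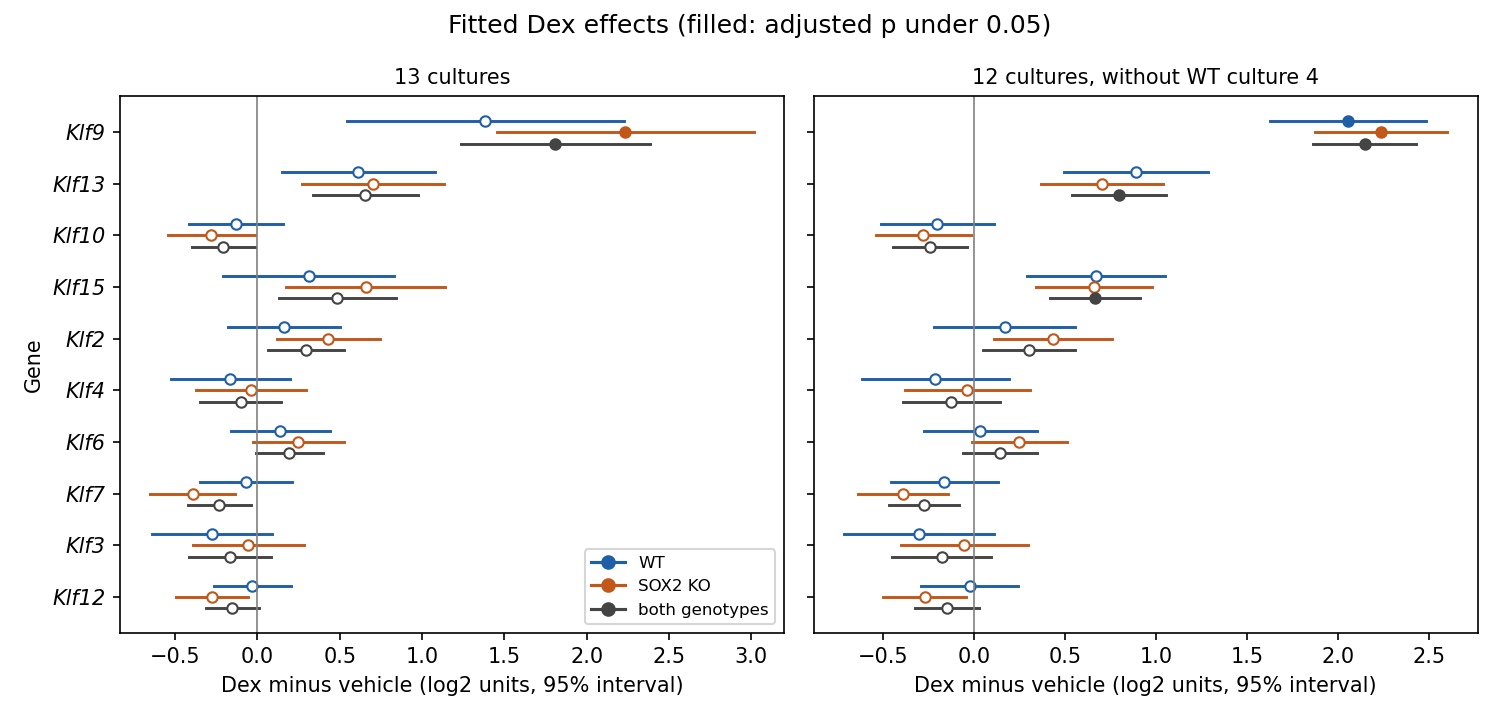
Fitted Dex minus vehicle difference in log2 units (horizontal axis) with its 95% interval for each gene (vertical axis), in WT (blue), SOX2 KO (orange) and over both genotypes (grey), with all 13 cultures on the left and without culture 4 on the right; filled points have an adjusted p under 0.05. Klf9 is filled in 2 of 3 fits on the left and in 3 of 3 on the right, where Klf13 and Klf15 are filled over both genotypes.

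The Dex responses were then compared between genotypes. For Klf9 the SOX2 KO response exceeded the WT response by 0.85 ± 0.54 log2 units (SE; 95% interval −0.29 to 2.00; limma, adjusted p = 0.999) with all cultures and by 0.18 ± 0.27 (−0.38 to 0.75) without culture 4. The second interval, −0.38 to 0.75 log2 units, covers both a lower and a higher response in SOX2 KO than in WT. For Klf13 the difference between responses was 0.09 ± 0.30 with all cultures and −0.19 ± 0.25 (−0.71 to 0.33) without culture 4. For Klf15 it was 0.35 ± 0.34 and −0.01 ± 0.23 (−0.50 to 0.48). No member passed in limma, and neither did any of the 19505 genes (0%), of which 688 with all cultures and 644 without culture 4 had an unadjusted p under 0.05. For Klf7 and Klf12 the values without culture 4 were −0.23 ± 0.18 and −0.25 ± 0.17, so their negative values in SOX2 KO were not shown to differ from WT.

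Between the genotypes, Klf15 showed the clearest separation, and no member passed the test with the fitted design. On vehicle arrays every SOX2 KO value (5.48 to 5.94) lay below every WT value (6.14 to 7.22), an order that 0.359% of all genes showed in this direction, and without culture 4 the WT arrays ended at 6.51. The difference was −0.72 ± 0.23 log2 units (SE; limma, adjusted p = 0.247), and −0.57 ± 0.19 without culture 4 (adjusted p = 0.331). On Dex arrays it was −0.37 ± 0.23 (adjusted p = 0.809) and −0.58 ± 0.19 without culture 4 (adjusted p = 0.297), with overlapping ranges. With each culture's arrays averaged, Klf15 differed by −0.54 ± 0.15 (SOX2 KO minus WT, adjusted p = 0.163) and by −0.57 ± 0.16 without culture 4 (adjusted p = 0.185). This value passed under 2 of 21 alternatives, with array weights (−0.58, adjusted p = 0.0100) and with the array cluster as a covariate (−0.52, adjusted p = 0.0408). In the same 2 settings the calls among all genes rose from 143 to 1158 and 550. It did not pass in the other 19. The clusters are 3 sets of cultures whose arrays resemble each other. They were drawn from these same arrays and are small, so the values within them are a description. The sets held 3 WT and 2 SOX2 KO, 1 WT and 2 SOX2 KO, and 2 WT and 3 SOX2 KO cultures. Within these sets the SOX2 KO minus WT difference of Klf15, averaged over both treatments, was −0.46, −0.53 and −0.57. The second set held culture 4 as its only WT culture, and its value averages −1.42 with vehicle and 0.37 with Dex, which are of opposite sign. Among all genes, 0.559% were called with vehicle, 0.564% with Dex and 0.733% over both treatments, and 0.523%, 0.554% and 0.59% without culture 4.

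The other members' genotype differences overlapped between groups. Klf10 differed (SOX2 KO minus WT) with vehicle by 0.81 ± 0.32 log2 units (SE, limma adjusted p = 0.613), and by 0.74 ± 0.35 without culture 4. Its vehicle arrays ran from 11.96 to 13.88 in WT and from 12.68 to 14.79 in SOX2 KO. With Dex it differed by 0.66 ± 0.32, and by 0.66 ± 0.35 without culture 4. Klf12 differed by 0.45 ± 0.19 (adjusted p = 0.768) and Klf7 by 0.44 ± 0.18 (adjusted p = 0.703) with vehicle, and by 0.20 ± 0.19 and 0.12 ± 0.18 with Dex. Without culture 4 these values were 0.52 ± 0.20 and 0.40 ± 0.20 with vehicle and 0.27 ± 0.20 and 0.17 ± 0.20 with Dex. Klf2 differed by 0.55 ± 0.20 with Dex (adjusted p = 0.382) and 0.28 ± 0.20 with vehicle, and by 0.48 ± 0.21 and 0.21 ± 0.21 without culture 4. Klf13 differed by −0.38 ± 0.22 with vehicle and −0.29 ± 0.22 with Dex, and by −0.20 ± 0.20 and −0.38 ± 0.20 without culture 4. For Klf9 the vehicle difference was −0.21 ± 0.40, which turned to 0.13 ± 0.32 without culture 4. The Klf9 difference with Dex was 0.64 ± 0.40, and 0.31 ± 0.32 without culture 4. With vehicle, Klf3 differed by 0.04 ± 0.31 and by 0.21 ± 0.29 without culture 4, and Klf6 by 0.39 ± 0.29 and by 0.20 ± 0.28. For Klf4 the vehicle values were 0.00 ± 0.25 and −0.03 ± 0.27, of opposite sign and within their errors of 0. With Dex the values in the same order were 0.26 ± 0.31 and 0.46 ± 0.29 for Klf3, 0.50 ± 0.29 and 0.41 ± 0.28 for Klf6, and 0.13 ± 0.25 and 0.15 ± 0.27 for Klf4. The median difference with vehicle was 0.16 over the 10 members and −0.03 over all genes, and 0.20 and −0.05 without culture 4.

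The order of the 4 groups by mean level differed among the genes. For Klf9 it ran from SOX2 KO vehicle (9.46 ± 0.65, SD, n = 7) and WT vehicle (9.67 ± 1.04, n = 6) to WT Dex (11.06 ± 1.01) and SOX2 KO Dex (11.70 ± 0.32). The vehicle neighbours and the Dex neighbours did not differ beyond their spread. Without culture 4 the vehicle groups changed places, with WT at 9.33 ± 0.69, and WT Dex stood at 11.38 ± 0.68. For Klf15 the order was SOX2 KO vehicle (5.76 ± 0.17), SOX2 KO Dex (6.42 ± 0.39), WT vehicle (6.47 ± 0.39) and WT Dex (6.79 ± 0.58), the middle groups being within their spread. Without culture 4 these changed places too, with WT vehicle at 6.32 ± 0.17 and WT Dex at 6.99 ± 0.31. For Klf13 it was SOX2 KO vehicle (10.52 ± 0.30), WT vehicle (10.90 ± 0.47), SOX2 KO Dex (11.22 ± 0.28) and WT Dex (11.51 ± 0.45). Each mean in that order lay within the range of the arrays of the group before it. Without culture 4 the order was the same, with WT vehicle at 10.71 ± 0.15 and WT Dex at 11.60 ± 0.44, and the SOX2 KO Dex mean then lay above all WT vehicle arrays. Klf10 had both WT groups (12.74 ± 0.63 with Dex, 12.87 ± 0.65 with vehicle) below both SOX2 KO groups (13.40 ± 0.59 with Dex, 13.68 ± 0.62 with vehicle).

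In the other members the group means lay closer together. Klf2 ran from WT vehicle (5.48 ± 0.22) over WT Dex (5.64 ± 0.23) and SOX2 KO vehicle (5.76 ± 0.19) to SOX2 KO Dex (6.19 ± 0.51, SD), the last with the widest spread. Klf7 stood at 11.60 ± 0.30 in WT Dex, 11.67 ± 0.38 in WT vehicle, 11.72 ± 0.16 in SOX2 KO Dex and 12.11 ± 0.27 in SOX2 KO vehicle. Klf12 had the same order, with means of 12.78, 12.81, 12.98 and 13.26. For Klf3 (11.67 to 11.98), Klf4 (4.48 to 4.64) and Klf6 (10.86 to 11.50) the lowest and highest group means differed by less than the largest SD of the groups. Without culture 4 the lowest group means were 11.46, 4.46 and 11.06, and the order of the Klf2, Klf7, Klf10 and Klf12 groups was as given.

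**Figure D4:**
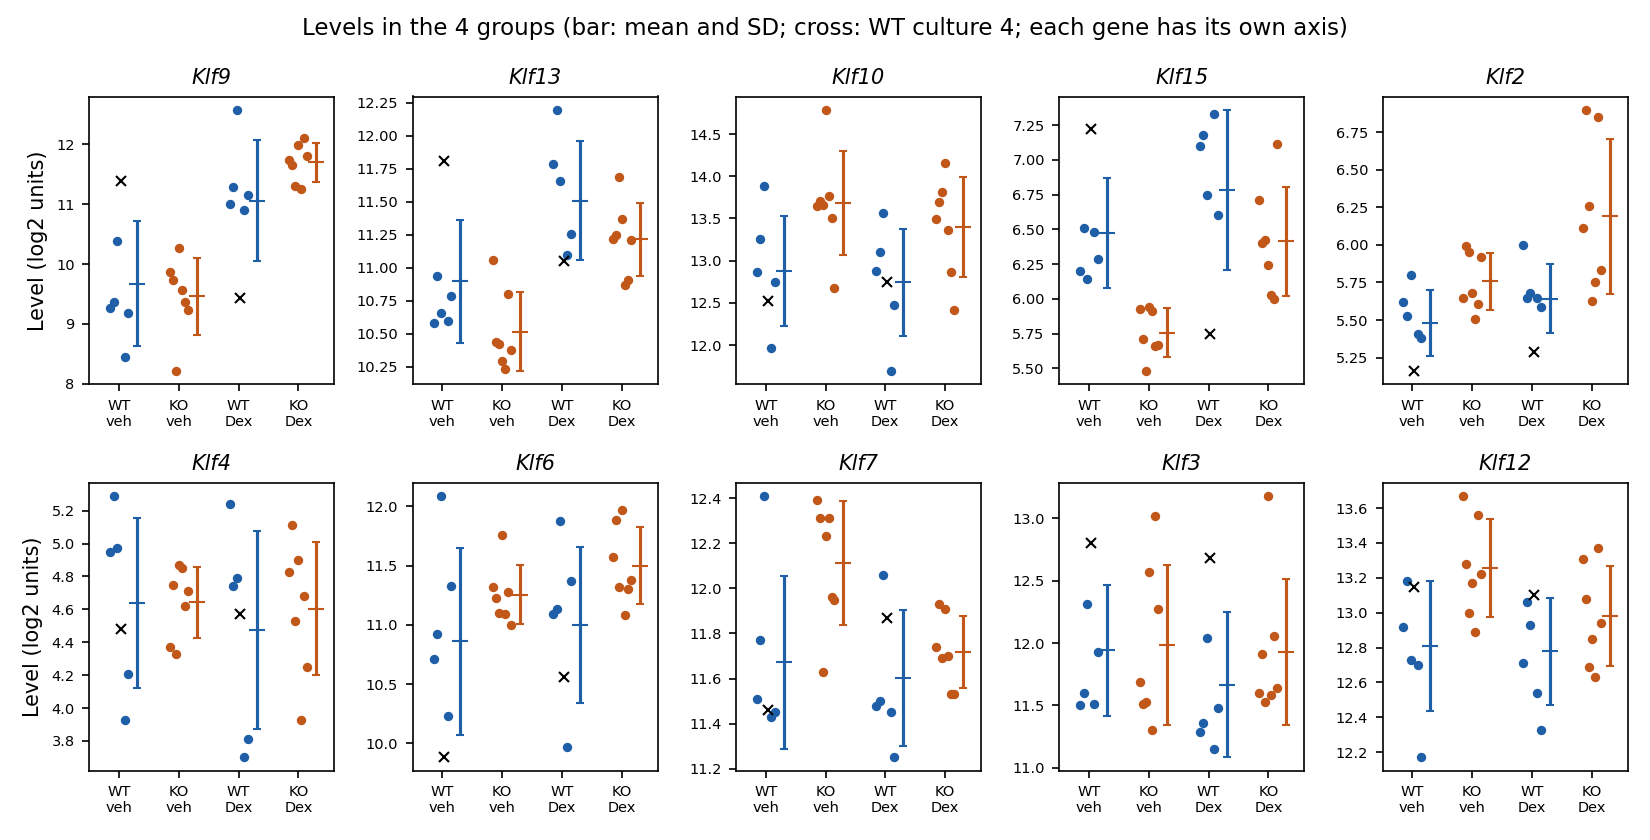
Log2 level (vertical axis, own scale per gene) on every array in the 4 groups (horizontal axis; veh is vehicle, KO is SOX2 KO), WT in blue, SOX2 KO in orange, culture 4 as a black cross; bars give the mean and SD of the group. The SOX2 KO vehicle points of Klf15 (5.48 to 5.94) lie below all WT vehicle points (6.14 to 7.22).

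Genes whose Dex responses over cultures most resembled that of Klf9 were sought by Pearson correlation of the 13 differences, as a description over cultures that share culture 4. The highest values were Smox (0.945), a polyamine oxidase, Fkbp5 (0.938), which encodes an Hsp90 co-chaperone acting on steroid receptors, the clock genes Per2 (0.935) and Per1 (0.934), and Map7d2 (0.933). Klf15 ranked 15th at 0.883 and Klf13 182nd at 0.674. These values rested on culture 4. Over the other 12 cultures the order changed to Slc25a53 (0.903), Prkacb, Slamf8, Gne and Bcorl1, and Klf15 stood at 0.43 and Klf13 at −0.0588. Slc25a53 itself had a mean Dex difference of 0.01 ± 0.14 log2 units (SE) without culture 4. Over the levels of all 26 arrays the closest genes were Per1 (0.92), Per2 (0.897), Hif3a (0.88), Fam107a (0.872) and Pip4k2a (0.832), and without culture 4 they were the same 5 genes.

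The rest of the family and its partners gave no call for Dex. Of the 7 other Krüppel-like factors listed (Klf1, Klf5, Klf8, Klf11, Klf14, Klf16 and Klf17), all measured, none passed in limma in any Dex comparison. Over both genotypes without culture 4 their differences ran from −0.42 for Klf16 to 0.24 for Klf1, with a median of 0.06. Of the 8 measured Sp factors none passed for Dex. Sp8, a factor of forebrain patterning, differed between SOX2 KO and WT with vehicle by −0.89 ± 0.22 (SE, limma adjusted p = 0.0646). Without culture 4 it passed at −0.99 ± 0.23 (adjusted p = 0.0450), where limma called 0.523% of all genes and none of the 10 members. None of the 14 measured co-regulators of these families and none of 11 nuclear receptor and hormone activation genes passed for Dex. The latter had differences of both signs in SOX2 KO, and the genes named here were chosen after their values were seen. The thyroid hormone receptor gene Thrb differed there by −0.64 ± 0.13 (limma adjusted p = 0.101) and the glucocorticoid receptor gene Nr3c1 by −0.57 ± 0.17 (adjusted p = 0.336). Dio2 and Rxra had the other sign, at 0.67 ± 0.25 (adjusted p = 0.401) and 0.36 ± 0.15 (adjusted p = 0.439).

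Glucocorticoid-induced genes, a list drawn up from known targets with earlier results of these arrays in view, were set beside Klf9. Of 18 genes, all measured, 9 rose over both genotypes with all cultures and 12 without culture 4, where limma called 0.144% and 0.497% of all genes, and none fell. A list chosen in this way is not independent evidence of its direction. Their median was 0.91 log2 units, and 1.12 without culture 4, beside −0.01 for all genes. The Klf9 rise of 2.14 without culture 4 lay beside 2.13 ± 0.12 (SE) for Per1, 2.23 ± 0.14 for Hif3a, 1.87 ± 0.10 for Fkbp5 and 4.98 ± 0.13 for Fam107a, all past the threshold in limma. Culture 4 was singled out by Fkbp5, Per1 and Tsc22d3, which are on this list. Leaving it out raises their values by that choice, so the values and counts without it are not separate evidence of a rise. Of 17 clock genes, Per1 and Per2 rose over both genotypes. With all cultures Per2 rose by 1.05 ± 0.18 (adjusted p = 0.0322), and without culture 4 by 1.24 ± 0.13 (adjusted p = 5.57e-05).

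Lists chosen for the other members gave no Dex call. None of 19 immediate early genes, the company of Klf6 and Klf10 in growth signalling, passed in limma over both genotypes, though 16 had differences below 0, with a median of −0.24 beside −0.01 for all genes. None of 13 measured TGF-beta response and SMAD genes passed, and in the genotype comparison with vehicle Smad3, a signal carrier of the TGF-beta receptor, was lower in SOX2 KO by −1.14 ± 0.26 (SE; adjusted p = 0.0240), and by −1.17 ± 0.28 without culture 4 (adjusted p = 0.0450). Of 9 pluripotency genes, listed for Klf4, none passed for Dex. Between genotypes with vehicle Sox2 alone was called, which is the gene deleted in SOX2 KO and served as the check of the labels.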

How the data were processed

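RNA of 13 NSPC cultures was hybridised as biotin-labelled cRNA to 26 arrays of 1 colour. The values deposited by the authors were taken as log2 levels per transcript cluster, from their range of 2.22 to 19.81; log base, normalization and background step are not given in the sources used here, and the number of arrays limits the precision. Of 22206 rows, 19572 carried 1 gene symbol in the platform annotation and 2634 none; the row of highest mean stood for a gene, leaving 19505 genes.

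Dex effects were fitted with limma 3.58.1 (R 4.3.3) with culture as a block over all arrays. The SE of a Dex effect within 1 genotype therefore rests on a spread shared by both genotypes. Genotype effects used 4 group means, or 13 culture means, and p-values were Benjamini-Hochberg adjusted over 19505 genes with a threshold of 0.05. Arrays were paired by the biological sample number of the labels, whose protocol says that each animal's cultures were kept separate; that a number marks 1 animal is not stated. The arrays of a pair deviated together (correlation 0.312 to 0.731, 22 of 26 arrays closest to their partner). The scripts were tested on simulated data. Alternatives were other normalizations, priors, weights, blocks and left-out cultures. The analyses without culture 4 were chosen after seeing the data. Members and gene lists were chosen with earlier results of these data known. Genes named are the members, the 5 most like Klf9 by each measure and, of a list, up to 3 of smallest p among those past the threshold. Sox2, Fkbp5, Per1 and Tsc22d3 were named as checks of the labels. Klf1, Klf16, Thrb, Nr3c1, Dio2, Rxra and Slc25a53's mean were added after their values were seen. Promoter sequences are from RefSeq (GRCm38.p6).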

Additional observations from a re-analysis of the deposited data

Results flagged for a closer look

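Values far from the rest of their group, by the gap to the nearest sample against the group's range, were looked for in 60 sets of levels and differences of the 10 genes. There were 7 such values, where chance gives about 1 in 20 sets. Of these, 4 were in WT culture 4: the Klf9 difference of −1.95 (other WT cultures 1.73 to 2.45), the Klf15 difference of −1.47 (others 0.31 to 0.90), the Klf13 vehicle level of 11.81 (others 10.58 to 10.94) and the Klf15 vehicle level of 7.22 (others 6.14 to 6.51). SOX2 KO culture 10 had a Klf3 level of 13.18 with Dex (others 11.53 to 12.06) and a Klf6 level of 11.76 with vehicle (others 11.00 to 11.32). WT culture 3 had a Klf7 vehicle level of 12.41 (others 11.43 to 11.77).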

How the results depend on the processing

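Over 24 planned and 19 added settings, 110 values of the 10 genes were recomputed 2279 times. Of these, 2192 kept direction and side of the threshold, 24 newly passed it, 8 no longer did, 55 changed sign without passing in either fit, and 0 changed sign while past it. The 8 losses were all of Klf9 with culture 4 included. The cause of each change below was not tested.

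Counts of genes called moved more. For Dex in WT, 0 became 97 with array weights and 58 without cultures 4 and 12, and ran from 0 to 33 over left-out cultures (33 without culture 4). For Dex in SOX2 KO, 14 became 69 with array weights, 31 with only the arrays of that genotype and 66 without cultures 4 and 12, and ran from 3 to 49. For Dex over both genotypes, 28 became 15 with no replicate block, 46 with a trended robust prior, 317 with array weights and 177 without cultures 4 and 12, and ran from 5 to 97. For genotype with vehicle, 109 became 168 with quantile normalization, 378 with array weights and 376 with array cluster as a covariate. For genotype with Dex, 110 became 171, 561 and 397 in the same order, 72 with only the arrays compared, and 69 to 160 over left-out cultures. For genotype over both treatments, 143 became 217, 1158 and 550, and 85 to 182. Quantile normalization also moved the split into higher and lower calls from 36 and 74 to 78 and 93 with Dex, and from 45 and 98 to 94 and 123 over both treatments. With array cluster as a covariate the split became 188 and 188 with vehicle (from 37 and 72), 187 and 210 with Dex and 268 and 282 over both treatments. Array weights moved Dex over both genotypes from 25 higher and 3 lower to 180 and 137, and genotype over both treatments to 197 and 961.

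Of the 10 members, those called for Dex in WT rose from 0 to 2 with array weights and 2 without cultures 4 and 12 (0 to 1 over left-out cultures). In SOX2 KO, 1 became 2 without cultures 4 and 12 (0 to 1), and over both genotypes 1 became 3 in both settings (0 to 3). Calls among all genes also rose with array weights and without cultures 4 and 12, as given above. Without culture 4, 1 became 2 with quantile normalization, 2 with a trended robust prior and 3 with array weights, in WT and in SOX2 KO alike. Over left-out cultures it ran from 1 to 2 in both. Calls among all genes were not counted for these normalization, prior and weight settings, so these member counts are only a description. For genotype over both treatments, 0 became 1 with array weights and 1 with array cluster as a covariate, which is Klf15. Calls among all genes went from 143 to 1158 and 550 in these settings. The signal of Klf4, Klf2 and Klf15 near or below the array median limits what these probes can show.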
